A study of Mus musculus with 6 samples.

Results

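The 7 genes described here, Id1, Id2, Id3, Id4, Smad6, Msx1 and Msx2, are transcriptional targets of Bmp signalling, and they were followed in sorted hair follicle stem cells with and without integrin-linked kinase (ILK). They were chosen by name, with earlier results of these data known, by matching the Ensembl gene identifiers of the count table to mouse symbols. They are 7 of 43274 genes in that table. The bulge is the niche in which the stem cells of the hair follicle reside. FACS of epidermis from mice at postnatal day 21 yielded the bulge SCs as CD34+ cells with high α6 integrin. In the control mice 1 Ilk allele was floxed and K5-Cre was present (genotype ILK +/-, 3 libraries), and in the ILK-K5 mice both alleles were floxed, again with K5-Cre (genotype ILK -/-, 3 libraries), all on a mixed C57Bl6-129/Sv background. The keratin 5 promoter drives Cre in all basal keratinocytes and not in bulge SCs alone, the controls lack 1 functional allele, and the sources used here do not say whether a library came from 1 mouse or from pooled mice. According to the paper, control mice were littermates of the ILK-deficient mice, but which libraries shared a litter is not given.

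Bmp ligands bind a complex of type I and type II serine/threonine kinase receptors, which phosphorylates Smad1, Smad5 and Smad9, and these enter the nucleus with Smad4 to switch on target genes. In the skin, Bmp signalling is known for holding bulge SCs in quiescence, and antagonists made in and around the dermal papilla relieve this hold when a new hair cycle begins. The Id proteins are helix-loop-helix factors without a DNA-binding region that sequester E proteins, Smad6 is an inhibitory Smad that feeds back on the pathway, and Msx1 and Msx2 are homeodomain transcription factors.

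The libraries held between 8228019 and 11969072 reads on genes. The normalized counts, scaled by the authors with 1 size factor per library, were compared on the log2 scale with limma over the 16368 genes that averaged 10 normalized counts or more, and a gene was called where its p-value, adjusted by Benjamini-Hochberg over all genes tested, did not exceed 0.05. Ilk itself had 10.6, 16.7 and 38.5 normalized counts in the controls and 14.8, 30.9 and 29.2 in ILK-K5, and 89.7% of its exon bases also lie in exons of Taf10 or Rrp8 on the opposite strand, so that its count did not check the genotype. The bulge SC markers Krt15, Cd34, Itga6 and Sox9 were present in all 6 libraries. Of the 10 bulge SC markers listed, 1 (Cd34) was called lower in ILK-K5, and 7 had negative and 3 positive log2 fold changes. Macrophage markers separated the genotypes, with the sum of the 10 genes between 102 and 144 normalized counts in the controls and between 12914 and 19789 in ILK-K5. All 10 were called higher (Cd68, Csf1r, Adgre1, Cd14, Lyz2, C1qa, C1qb, C1qc, Mrc1 and Ctss), and Cd14, C1qa and C1qb had at most 3 reads in every control library. C1qc was read 0, 0 and 6 times and Mrc1 4, 1 and 7 times in the controls. Cd14, C1qa, C1qb, C1qc and Mrc1 passed the filter of 10 normalized counts only through ILK-K5.

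Of the 7 targets, 1, Id2, was called lower in ILK-K5 bulge SCs and 0 were called higher, where 0.599% of all genes tested were called lower and 2.93% higher. Id2 fell to 0.311 times its control level. Id3, at 0.319 times its control level, did not pass the threshold (adjusted p = 0.0571 from limma). At an unadjusted p-value under 0.05, Id1, Id2 and Id3 were lower, against 4.11% of all genes tested, and 0 of the 7 were higher. DESeq2 and edgeR also called 0 of them higher. All 3 ILK-K5 libraries lay below all 3 controls for Id1, Id2, Id3 and Smad6, that is for 4 of 7 targets, against 6.95% of all genes tested. The libraries overlapped for Id4, Msx1 and Msx2, and 0 of the targets had all ILK-K5 libraries above the controls, against 10.9% of all genes tested. The median log2 fold change of the 7 targets was -1.06, beside 0.0054 for all genes tested. Because the targets were chosen with earlier results of these data known, these comparisons with all genes are a description only. In RNA from sorted populations, a smaller share of cells expressing a gene and less of its RNA per cell cannot be told apart.

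**Figure D1:**
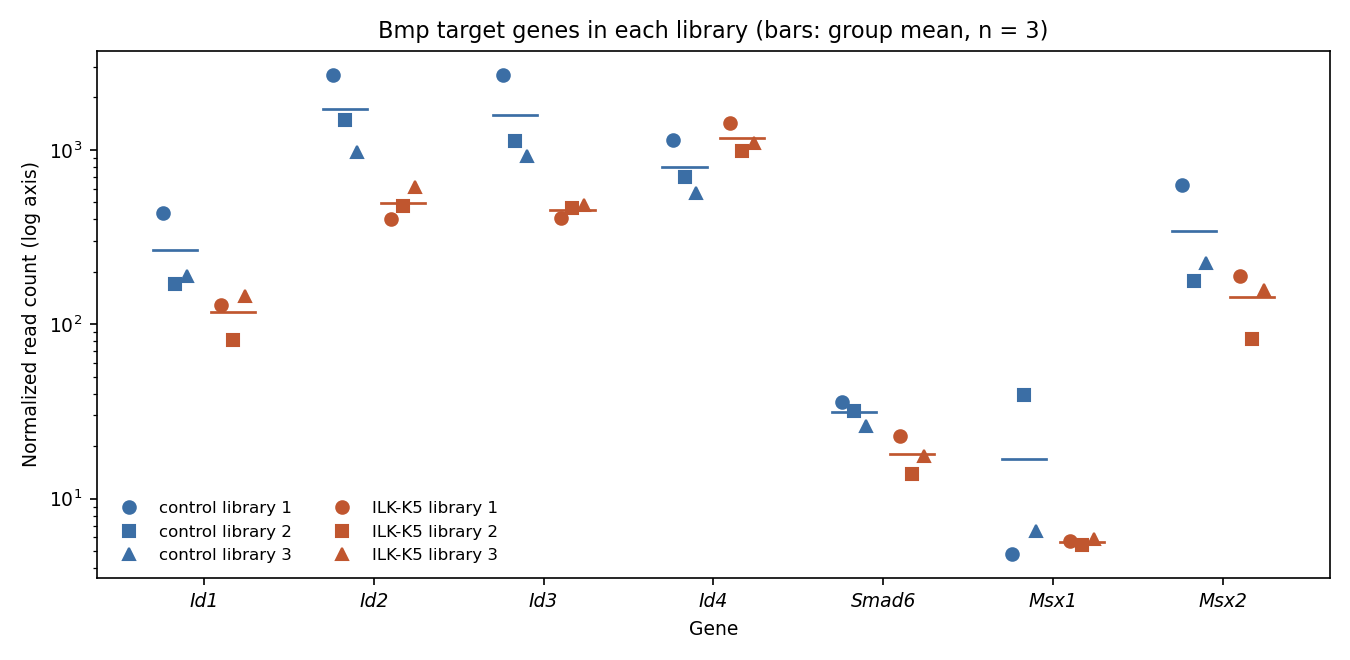
Normalized read counts (vertical axis, log scale) of the 7 Bmp targets in 3 control libraries (blue) and 3 ILK-K5 libraries (orange), with marker shapes for the replicate number and bars for the group means. The ILK-K5 points of Id1, Id2, Id3 and Smad6 all lie below the control points, those of Id4, Msx1 and Msx2 overlap with them, and control library 1 is the highest control for every gene but Msx1.

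Id2 (ENSMUSG00000020644) is a gene of chromosome 12 (25093799 to 25097140, minus strand) in GRCm38. Control libraries 1 to 3 had 2677, 1484 and 976.7 normalized counts and ILK-K5 libraries 1 to 3 had 400.7, 475.9 and 611.7, from 352 to 2775 reads. The highest ILK-K5 library stayed below the lowest control. The mean was 1713 ± 873 in control and 496.1 ± 107 in ILK-K5 (SD, n = 3 libraries each), and the log2 fold change was -1.68 (standard error 0.38, 95% confidence interval -2.53 to -0.83, adjusted p = 0.0444 from limma). The call rested on the set of libraries. When single libraries were left out, only the fit without control library 3 called it (adjusted p = 0.0152), and the others gave adjusted p-values of 0.0683 without control library 1, 0.158 without control library 2, and 0.152, 0.161 and 0.0894 without ILK-K5 libraries 1, 2 and 3.

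Id3 (ENSMUSG00000007872) is a gene of chromosome 4 (136143497 to 136145755, plus strand). It had 2697, 1128 and 917.9 normalized counts in the controls and 404.2, 463.5 and 481.2 in ILK-K5. The 3 ILK-K5 libraries lay within 1.19-fold of each other, whereas the controls spanned 2.94-fold, and no ILK-K5 library reached the lowest control. The means were 1581 ± 972 and 449.6 ± 40.4 (SD, n = 3 libraries each), with a log2 fold change of -1.65 (95% confidence interval -2.53 to -0.77, adjusted p = 0.0571 from limma). DESeq2 on the recovered reads called both Id2 (adjusted p = 9.15e-04) and Id3 (adjusted p = 0.00144), with 1.71% of all genes called lower in that test, and edgeR's quasi-likelihood test called Id2 (adjusted p = 0.0431) and not Id3 (adjusted p = 0.0518), with 0.532% of all genes called lower. Id3 was also called without control library 3 (adjusted p = 0.0288) and in no other fit that left out a library, where the adjusted p-values lay between 0.0515 and 0.177.

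The normalized counts of Id2 and Id3 ran in parallel over the libraries. These counts are not divided by transcript length, and in FPKM Id2 was above Id3 in every library. The log2 ratio of Id2 to Id3 was -0.01, 0.40 and 0.09 in the controls and -0.01, 0.04 and 0.35 in ILK-K5, so that its mean differed between the genotypes by 0.034 or less than the spread of either (SD 0.21 and 0.19). Among all genes tested, Id3 was the third closest to Id2 and Id2 the fourth closest to Id3, when each gene's 6 log2 values were centred on their own mean and the root mean square difference was taken (0.17). The closest to Id2 were Gm13056, 9330159M07Rik and Id3, and the closest to Id3 were Obox3, Gm13056 and Cdon, which encodes a cell surface receptor of the immunoglobulin superfamily, at 0.14 to 0.17. The median root mean square difference to any tested gene was 1.08 for either.

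Id1 (ENSMUSG00000042745) is a gene of chromosome 2 (152736251 to 152737410, plus strand). The gene had 437.1, 170.3 and 187.9 normalized counts in the controls and 128.6, 81.0 and 145.1 in ILK-K5. Each ILK-K5 library was below each control, by a narrow margin between ILK-K5 library 3 and control library 2. The means were 265.1 ± 149 and 118.3 ± 33.3 (SD, n = 3 libraries each), and the log2 fold change was -1.06 (standard error 0.43, 95% confidence interval -2.04 to -0.09, adjusted p = 0.336 from limma). Without control library 1, the log2 fold change was -0.64 (adjusted p = 0.618). The closest genes were Gm37900, ENSMUSG00000085220 and Gm38383 (root mean square difference 0.14 to 0.16), and of the other targets Msx2 was the closest, at 0.21.

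Id4 (ENSMUSG00000021379) is a gene of chromosome 13 (48261228 to 48266026, plus strand). It had 1142, 701.0 and 563.1 normalized counts in the controls and 1425, 991.1 and 1102 in ILK-K5. ILK-K5 library 1 was the highest of all 6 and control libraries 2 and 3 the lowest, but control library 1 exceeded ILK-K5 libraries 2 and 3. The means were 802.1 ± 303 and 1173 ± 226 (SD, n = 3 libraries each), and the log2 fold change was 0.60 (standard error 0.32, 95% confidence interval -0.12 to 1.31, adjusted p = 0.552 from limma). Id4 was the only one of the 7 with a positive fold change. It stayed between 0.37 and 0.88 on the log2 scale under all 20 alternatives, the quantile, TMM and GC scalings included, and was called under none of them (lowest adjusted p = 0.0664). Of its exon bases, 4.44% overlap A330033J07Rik and Gm49291 on the opposite strand, and A330033J07Rik had between 1 and 12 reads per library. The genes closest to Id4 were Rnf150, E2f6 and Gm5537 (root mean square difference 0.062 to 0.12).

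Levels can be compared between genes on the FPKM scale, which divides by transcript length. In all 3 control libraries the order of the Id genes was Id2, Id3, Id4 and Id1, with mean FPKM of 138 ± 70.5, 90.5 ± 55.6, 49.6 ± 18.7 and 23.4 ± 13.2 (SD, n = 3 libraries). The ranges of neighbours in this order overlapped over the 3 controls, and control library 1 was the highest for each of the 4. In all 3 ILK-K5 libraries Id4 came first, ahead of Id2, Id3 and Id1, with mean FPKM of 72.4 ± 13.9, 40.1 ± 8.63, 25.7 ± 2.31 and 10.5 ± 2.95 (SD, n = 3 libraries), and no ranges of neighbours overlapped. Id2 was the 354th most abundant of the genes tested in control and the 1127th in ILK-K5, and Id4, which was not called, moved from 929th to 604th.

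Id4 supplied 14.7%, 17.8% and 19.0% of the summed FPKM of the 4 Id genes in the controls and 56.8%, 45.9% and 43.1% in ILK-K5. The lowest ILK-K5 share was more than 2 times the highest control share. Id2 supplied 45.9 ± 3.18% in control and 27.0 ± 5.44% in ILK-K5, Id3 29.2 ± 2.81% and 17.4 ± 2.48%, and Id1 7.78 ± 1.46% and 6.95 ± 1.42% (SD, n = 3 libraries each). The summed FPKM of all 4 was 480, 243 and 183 in the controls and 155, 133 and 158 in ILK-K5, so that the controls were higher throughout but spread over a wider range. Shares within a library do not depend on its scaling factor.

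The same contrast was taken as log2 ratios of normalized counts within each library, for all 6 pairs of Id genes. A two-sided exact permutation test can give no p-value below 0.1 with 3 libraries against 3. The test could therefore not pass the threshold used for calls, and no conclusion is drawn from its p-values. The ratio of Id2 to Id4 was 1.23, 1.08 and 0.79 in the controls and -1.83, -1.06 and -0.85 in ILK-K5, a difference of -2.28 (exact permutation p = 0.1, adjusted p = 0.2 over 6 pairs). The ratio of Id3 to Id4 was 1.24, 0.69 and 0.70 in the controls and -1.82, -1.09 and -1.19 in ILK-K5, a difference of -2.24 (exact permutation p = 0.1, adjusted p = 0.2). The ratio of Id1 to Id4 was -1.67 ± 0.33 in control and -3.32 ± 0.36 in ILK-K5 (SD, n = 3 libraries each, exact permutation p = 0.1, adjusted p = 0.2). For these 3 pairs the genotypes did not overlap in any library, and the p-value was the smallest the design allows. All 3 pairs share Id4, so they are not separate results. How often pairs of other genes are separated in this way was not counted. For the ratios among Id1, Id2 and Id3 the genotypes overlapped (exact permutation p between 0.2 and 0.6).

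**Figure D2:**
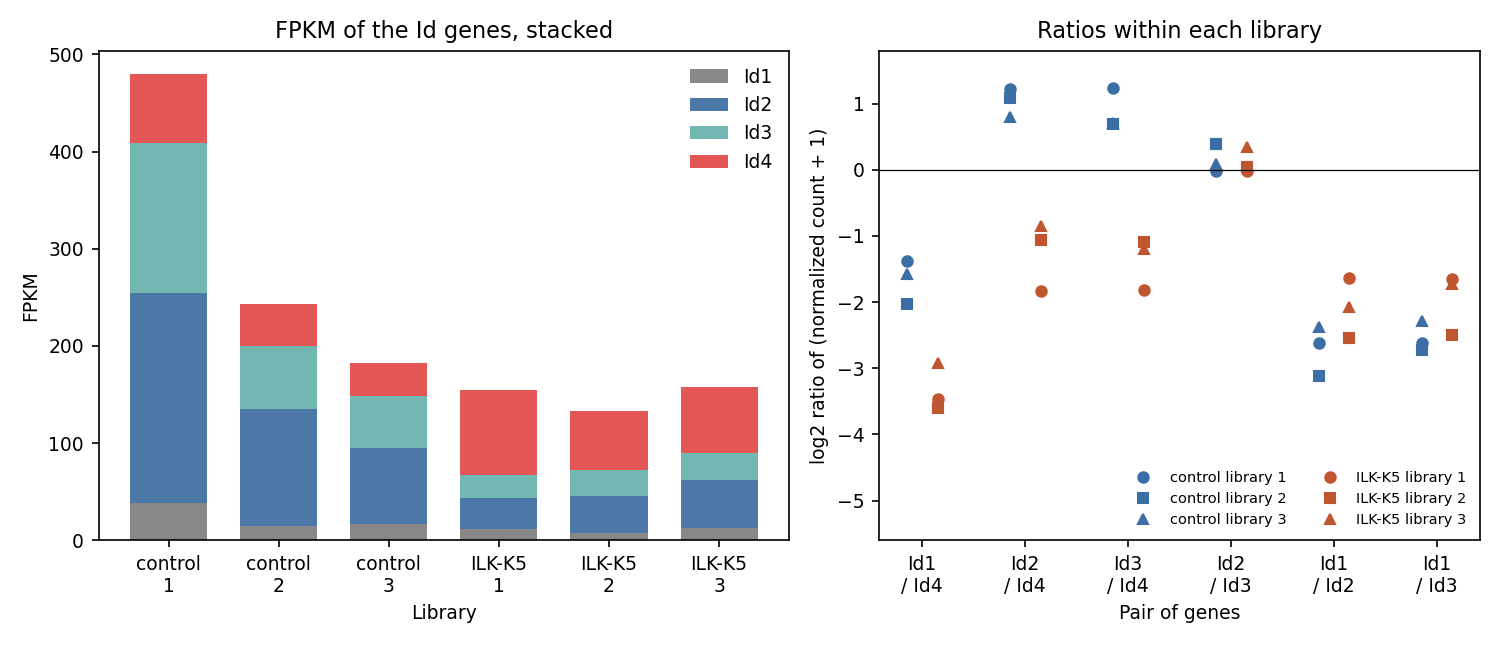
Left, FPKM of the 4 Id genes stacked for each library. Right, log2 ratios of (normalized count + 1) for the 6 pairs of Id genes, with 1 point per library (blue, control; orange, ILK-K5). Id4 makes up 14.7% to 19.0% of each control bar and 43.1% to 56.8% of each ILK-K5 bar, and the ratios to Id4 are separated by genotype while the other ratios overlap. Id4 itself was not called, and its share also depends on the other Id genes.

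Promoter sequence was compared among the targets as a description. RefSeq promoters of 300 bases (250 before the start and 50 after it, GRCm38.p6) were at hand for 6 of the 7 genes, all but Id1. They were searched on both strands for GGCGCC and GGAGCC, which are bound by Bmp Smads (or GGCTCC), for CAGAC (or GTCTG), the Smad-binding element, and for the E-box forms CACGTG and CAGCTG. The first of these and the E-boxes read the same on both strands. GGAGCC was found in all 6, beside 30.8% of 32851 promoters, and GGCGCC in Id2 and Id4, beside 11.9%. CAGAC was found in Id3 only, at 2 places, beside 49.6% of promoters, and CAGCTG in Id2, beside 16.3%. CACGTG (7.15% of promoters) and GGCGCC followed after 5 bases by GTCTG (0.0274%) were found in none of the 6. The promoters of the 6 were rich in G and C (60.0% to 73.3%, beside a median of 52.7%). The windows of 30 bases below show these motifs, in capitals, for Id2 and Id3, whose values ran in parallel over the libraries, and for Id4, whose values did not. They lie at chr12:25096306-25096335 and chr12:25096163-25096192 (minus strand) for Id2, at chr4:136143623-136143652, chr4:136143643-136143672 and chr4:136143742-136143771 (plus strand) for Id3, and at chr13:48260956-48260985 and chr13:48261091-48261120 (plus strand) for Id4, in that order, and positions are counted from the RefSeq start of the promoter table, which differs from the GENCODE gene ends given above. All 250 bases before that start in Id3 and Msx2, and 161 of those in Id2, lie in GENCODE exons, as do the GGAGCC of Id2 and all 3 windows of Id3 at their capitals, whereas the 2 motifs of Id4 and the GGCGCC of Id2 do not.
Id2, first capital at -231: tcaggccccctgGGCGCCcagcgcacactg
Id2, first capital at -88: gtatgatggacgGGAGCCcttccaccaatg
Id3, first capital at -187: cctcgcatccgaGGCTCCgctgtcctcggc
Id3, first capital at -167: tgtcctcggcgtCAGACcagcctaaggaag
Id3, first capital at -68: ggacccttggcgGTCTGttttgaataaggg
Id4, first capital at -148: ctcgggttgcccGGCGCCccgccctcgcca
Id4, first capital at -13: tactgctgtgccGGAGCCgagcgacgctgt
The Id4 promoter held the same GGCGCC and GGAGCC letters as that of Id2. The fold change of Id4 was not called, and a relation between these motifs and the values was not tested. A match of letters does not show that a factor binds.

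Smad6 (ENSMUSG00000036867), the inhibitory Smad, is a gene of chromosome 9 (63953076 to 64022059, minus strand). It was read 37, 21 and 36 times in the controls and 20, 18 and 18 times in ILK-K5, or 35.7, 31.9 and 26.1 against 22.8, 13.9 and 17.5 normalized counts. All ILK-K5 libraries were below the lowest control. The log2 fold change was -0.77 (standard error 0.51, 95% confidence interval -1.93 to 0.38, adjusted p = 0.686 from limma). With these few reads, the exact Poisson 95% interval of the lowest control, 18.3 to 36.2 normalized counts, overlapped that of the highest ILK-K5 library, 13.9 to 35.2, and these intervals cover counting error only. The closest genes were Gm10025, Rev3l and Kank1 (root mean square difference 0.068 to 0.099).

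Msx2 (ENSMUSG00000021469) is a gene of chromosome 13 (53466884 to 53473074, minus strand). It had 627.1, 177.9 and 224.2 normalized counts in the controls and 190.1, 82.5 and 157.8 in ILK-K5. Control library 1 stood far above the others, and ILK-K5 library 1 exceeded control library 2. The means were 343.1 ± 247 and 143.5 ± 55.2 (SD, n = 3 libraries each), and the log2 fold change was -1.11 (standard error 0.51, 95% confidence interval -2.27 to 0.05, adjusted p = 0.443 from limma). Without control library 1 the log2 fold change was -0.56 (adjusted p = 0.734). The closest genes were Zmat1, Mid1 and ENSMUSG00000085220 (root mean square difference 0.17 to 0.18), and Id1 was the tenth closest.

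Msx1 (ENSMUSG00000048450) is a gene of chromosome 5 (37820485 to 37824583, minus strand), and was barely detected. It had 5, 26 and 9 reads in the controls and 5, 7 and 6 in ILK-K5, or 4.82, 39.5 and 6.53 against 5.69, 5.40 and 5.84 normalized counts. Control library 2 alone lifted the gene over the filter, and the exact Poisson 95% interval of that library, 25.8 to 57.9 normalized counts, did not overlap those of the other controls, which reached 12.4 at most. The log2 fold change of -0.87 (95% confidence interval -2.89 to 1.16, adjusted p = 0.833 from limma) became 0.0044 without control library 2. The closest genes were Gm25939, Col8a1 and Gm3604 (root mean square difference 0.28 to 0.35). In FPKM, Msx2 (10.7 in control and 4.49 in ILK-K5 on average) came next below Id1, while Smad6 (0.836 to 1.14 in control and 0.444 to 0.729 in ILK-K5) and Msx1 (0.160 to 1.31 and 0.179 to 0.194) were near the bottom of the genes tested, at the 13112th and 14555th rank in control.

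Control library 1 was the highest control for 6 of the 7 targets, all but Msx1, whereas it was the highest control for 36.9% of all genes tested. ILK-K5 library 2 was the lowest ILK-K5 library for 5 of the 7, all but Id2 and Id3, beside 32.0% of all genes. Without control library 1, the log2 fold changes of Id2 and Id3 were -1.30 and -1.18, against -1.68 and -1.65 with it. The column name of replicate 1 in both genotypes also ends in another number than those of replicates 2 and 3, which is not explained in the sources used here. With a term for this number in the fit, Id2 and Id3 were both called (adjusted p = 0.0141 and 0.0125 from limma). A block for the replicate number also called both (adjusted p = 0.0116 for Id2 and 0.0106 for Id3 from limma). With replicates 2 and 3 only, the log2 fold changes were -0.72 for Id1, -1.16 for Id2, -1.11 for Id3, 0.73 for Id4, -0.85 for Smad6, -1.40 for Msx1 and -0.80 for Msx2, and 0 of the 7 were called (lowest adjusted p = 0.0967, for Id3). The direction of all 7 fold changes was kept under each of the 20 alternatives in which a gene was tested, except for Msx1 without control library 2. Smad6 and Msx1 fell below the stricter filter of 50 normalized counts.

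**Figure D3:**
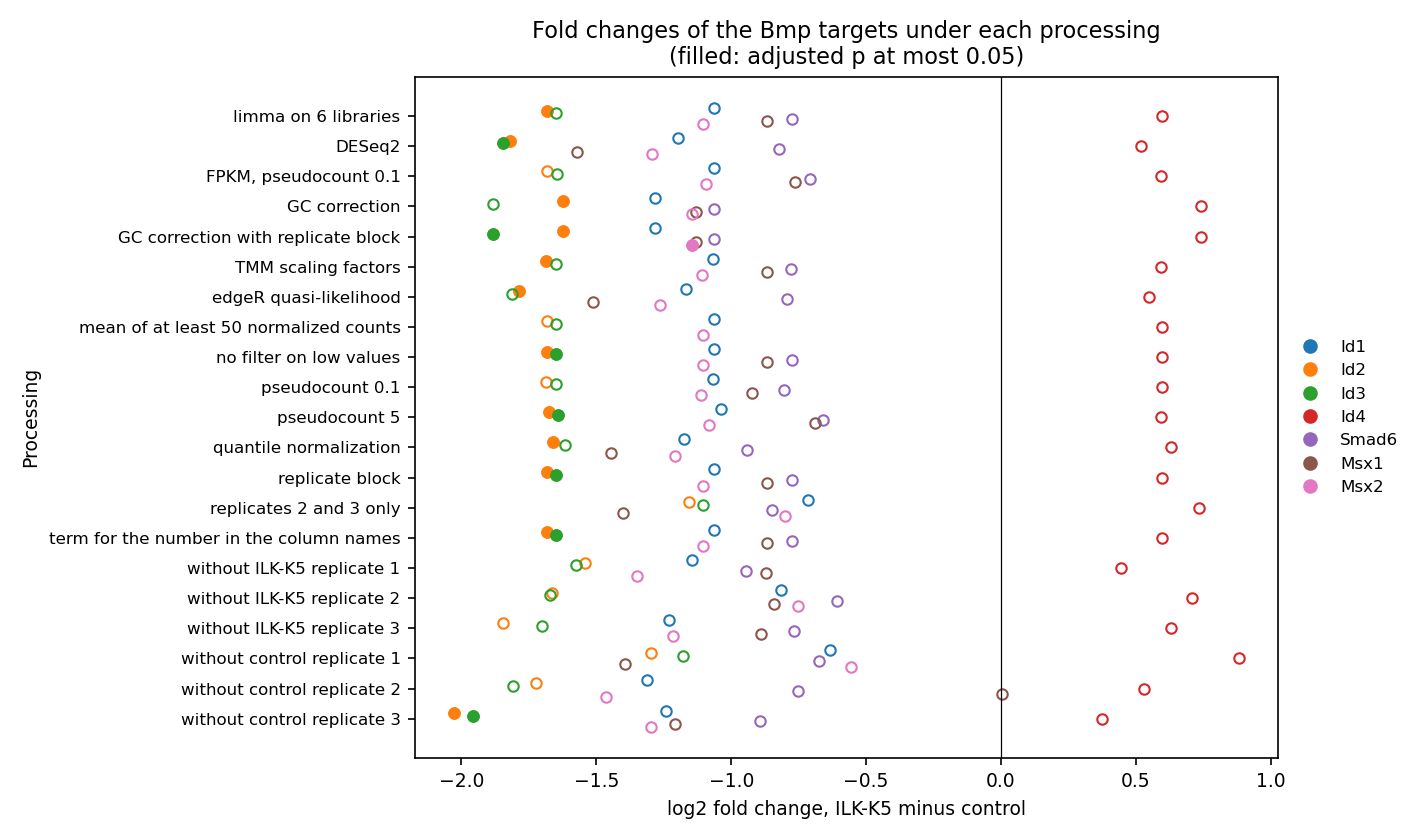
Log2 fold changes of the 7 Bmp targets (horizontal axis, ILK-K5 minus control) for the limma fit on 6 libraries and 20 alternatives, with filled points where the adjusted p-value did not exceed 0.05. Id2 and Id3 keep the lowest or nearly the lowest values, from -2.03 to -1.11, Id4 stays right of 0, and Msx1 moves to 0 without control library 2.

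The remaining genes of the pathway were taken from lists of 52 genes, also chosen with earlier results of these data known, of which 37 were tested. Of these, 6 were called lower and 0 higher, beside 0.599% and 2.93% of all genes tested. The 6 include Hey1, which passed the filter on low values only through its controls, so that its lower call is favoured by the filter. The median log2 fold change was -0.39, beside 0.0054 for all genes tested. Among the 6 ligands tested, 0 were called. At an unadjusted p-value under 0.05, where 2011 of the 16368 genes tested lay, there were 2 ligands. These were Bmp2, with 204.5, 301.1 and 243.1 normalized counts in the controls and 141.2, 111.8 and 165.6 in ILK-K5 (log2 fold change -0.83, adjusted p = 0.276), and Bmp4, with 20.3, 36.5 and 160.4 in the controls and 9.11, 12.3 and 17.5 in ILK-K5 (log2 fold change -1.90, adjusted p = 0.332). For both ligands all ILK-K5 libraries lay below all controls, as for 6.95% of all genes tested. Control library 3 was far above the others for Bmp4, which DESeq2 called lower and edgeR did not. Among the 7 receptors and co-receptors tested, 0 were called and Acvr1, a type I receptor, had an unadjusted p-value under 0.05, with 88.8, 77.5 and 138.6 normalized counts in the controls and 161.7, 195.1 and 246.4 in ILK-K5 (adjusted p = 0.238). The main type I receptor of the skin, Bmpr1a, had 5058 normalized counts in control and 3757 in ILK-K5 on average (log2 fold change -0.40, 95% confidence interval -1.05 to 0.25).

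Of the Smads that carry the signal, Smad9 was called lower, with 348.3, 223.5 and 218.4 normalized counts in the controls and 31.9, 13.1 and 46.8 in ILK-K5 (log2 fold change -3.20, 95% confidence interval -4.32 to -2.08, adjusted p = 0.00770 from limma). Every ILK-K5 library was below every control by a wide margin. The log2 fold changes of Smad1, Smad5 and Smad4 were 0.46, 0.05 and 0.22, without a call. Among the 7 secreted antagonists tested, Grem1, Sostdc1 and Fst were called lower and the other 4 had negative fold changes without a call. Sostdc1, whose ILK-K5 libraries lay close together, had 6169, 7662 and 3621 normalized counts in the controls and 754.8, 782.8 and 792.9 in ILK-K5 (log2 fold change -2.84, adjusted p = 0.00124). Grem1 had 692 normalized counts in ILK-K5 against 9828 in control on average (log2 fold change -3.62, adjusted p = 0.00430), and its highest control was again control library 1. For Fst, which binds activins and Bmps, the log2 fold change was -1.83 (adjusted p = 0.0208).

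The inhibitors inside the cell and in its membrane had 0 calls among 6 genes in limma and edgeR. Bambi and Skil had an unadjusted p-value under 0.05, as did 2011 of the 16368 genes tested. DESeq2 called Bambi, with 1.71% of all genes called lower in that test. The pseudoreceptor Bambi had 147.6, 73.0 and 50.8 normalized counts in the controls and 30.7, 23.1 and 22.4 in ILK-K5 (log2 fold change -1.66, adjusted p = 0.144). All its ILK-K5 libraries lay below the controls, as for 6.95% of all genes tested. Smad7, the second inhibitory Smad, had 297.2, 71.5 and 89.2 in the controls and 86.5, 57.8 and 74.0 in ILK-K5 (log2 fold change -0.78, adjusted p = 0.708), so that its control library 1 stood apart as it did for Msx2. For Skil, a corepressor of Smads, the log2 fold change was 0.97 (adjusted p = 0.234), with all ILK-K5 libraries above the controls, as for 10.9% of all genes tested.

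Of the 7 other Bmp-responsive genes tested, 2 were called lower. The homeobox gene Dlx3, which acts in hair differentiation, had 280.8, 124.7 and 217.7 normalized counts in the controls and 28.5, 60.9 and 49.7 in ILK-K5 (log2 fold change -2.13, adjusted p = 0.0333 from limma). Hey1, a transcriptional repressor also induced by Notch, had 51.1, 54.7 and 63.1 in the controls and 7.97, 3.09 and 11.7 in ILK-K5. Its log2 fold change was -2.88 (adjusted p = 0.0336 from limma). Hey1 was read only 7, 4 and 12 times in ILK-K5 and passed the filter on low values through its controls. It was not called with a pseudocount of 0.1. Neither Dlx3 nor Hey1 was called in any of the 6 fits that left out a library. Smad9, Grem1 and Sostdc1 were called in all 6 and Fst in 3. Atoh8, a helix-loop-helix factor, had 30.9, 54.7 and 29.0 in the controls and 0, 2.31 and 10.7 in ILK-K5. Its log2 fold change was -3.47 (adjusted p = 0.0969 from limma), and it was called by DESeq2 and not by edgeR. Atoh8 was read 0, 3 and 11 times in ILK-K5 and also passed the filter through its controls. Runx2 had a positive log2 fold change of 1.65 (adjusted p = 0.384), with control library 1 among the ILK-K5 values. The E proteins that Id proteins bind, Tcf3, Tcf4 and Tcf12, had log2 fold changes of -0.11, 0.21 and -0.34, and 0 of the 3 were called or had an unadjusted p-value under 0.05.

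**Figure D4:**
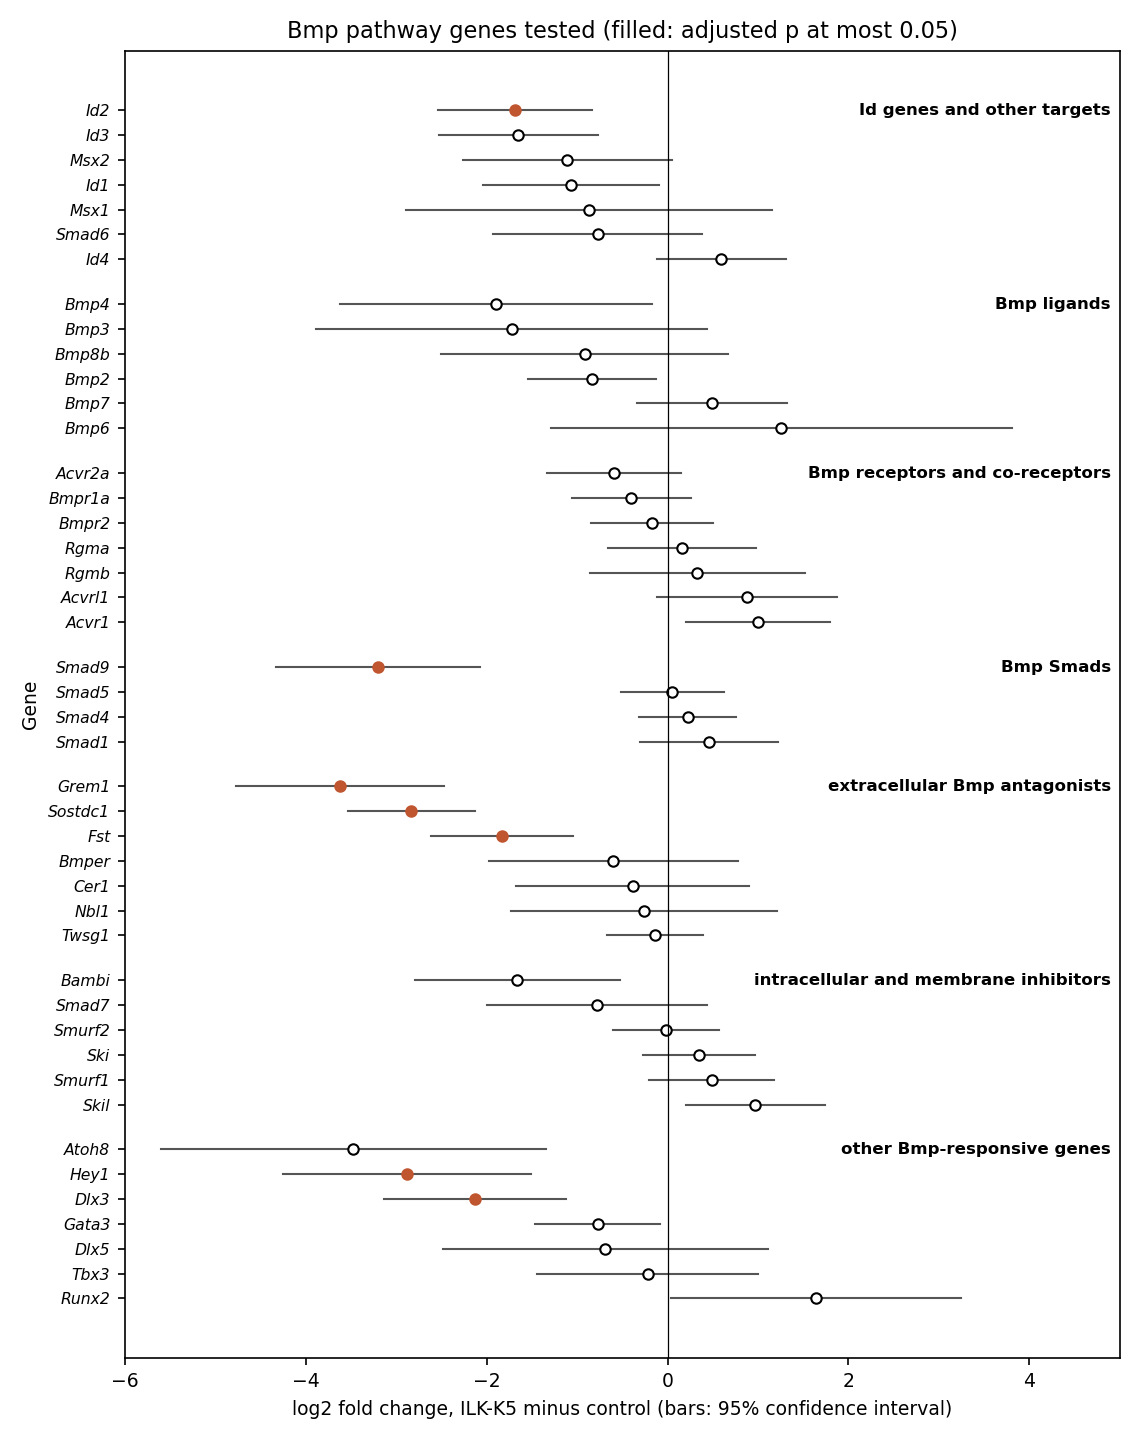
Log2 fold changes (ILK-K5 minus control, horizontal axis) with 95% confidence intervals for the 7 Bmp targets and the 37 other pathway genes tested, grouped by role, with filled points where the adjusted p-value did not exceed 0.05. The 7 filled points, Id2 among them, all lie left of 0, and of the Smads that carry the signal Smad9 alone is filled. Hey1, also filled, passed the filter on low values only through its controls.

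Markers of other cell types moved with the genotype beside these values. The 10 macrophage markers given above were each called higher as single genes, beside 2.93% of all genes tested, and no sum or list was tested. The sum of the 10 fibroblast and dermal papilla markers was 749 to 810 normalized counts in control and 1684 to 2854 in ILK-K5, with 2 called higher (Col3a1 and Vcan), while Lum and Sox2 had at most 3 reads in every control library. The sum of the 7 melanocyte markers was 680 to 1311 in control and 273 to 483 in ILK-K5, with Mitf called lower, which had 866.5 of these counts in control on average. Without Mitf the sum was 83.6 to 176 in control and 81.0 to 229 in ILK-K5. Tyrp1 had all ILK-K5 libraries above the controls, as had 10.9% of all genes tested (log2 fold change 3.29, adjusted p = 0.119). Sox10 and Mlana had 3 reads or fewer in every control. The sum of the 8 endothelial markers was 79.8 to 189 in control and 120 to 126 in ILK-K5, with 0 called and Cldn5 at 3 reads or fewer in every control. At an unadjusted p-value under 0.05, where 2011 of the 16368 genes tested lay, Tek was lower (log2 fold change -2.02) and Eng higher (1.66). Tek was read 5, 15 and 9 times in ILK-K5 and passed the filter on low values only through its controls. Eng was read 7, 5 and 21 times in the controls and passed it only through ILK-K5. Of the 8 markers of differentiated keratinocytes, whose sum was 3949 to 21260 in control and 4691 to 7576 in ILK-K5, Lor was called lower. Of the 10 bulge SC markers, Cd34 was called lower (log2 fold change -1.90, adjusted p = 0.0239), a gene that also served for sorting, and the sum was 73745 to 183037 in control and 53531 to 94449 in ILK-K5. The part of these populations in the values of the Bmp targets was not tested.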

How the data were processed

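Cells of 3 control and 3 ILK-K5 samples were sorted into TRIzol LS, cDNA was amplified with Ovation RNA-Seq V2, and paired-end libraries were made with Nextera XT. The authors removed adapters and ribosomal reads, aligned with TopHat2 2.0.14 and Bowtie2 2.2.4 to GRCm38, and used DESeq2 1.6.3 (submitters' processing notes and paper); the counting program is not given in the sources used here. The signal values deposited by the authors are counts divided by a size factor, and whole reads were recovered for 100% of values within 0.01. The deposited FPKM are these counts times 1 constant per gene. The deposited tables of the authors' own comparison (fold changes and p-values) were not used. Of 43274 genes, 42107 had a symbol in GENCODE M21.

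limma 3.58.1 (lmFit, eBayes with trend, two-sided) in R 4.3.3 was run on log2(normalized count + 1), so that fold changes of low genes are understated, for genes with a mean of at least 10, without a replicate block. A run on simulated counts used the same fixed dispersion for every gene, and no conclusion on the genes described here is drawn from it. edgeR 4.0.16 and DESeq2 1.42.0 were run on the recovered reads as alternatives. Exact permutation tests used SciPy 1.17.1. Libraries are not stated to be separate mice, so p-values measure the spread between these libraries. The members, the gene lists and the rule for named genes (all members, all called genes of the lists with up to 3 others each, Ilk, and the 3 closest genes per member) were chosen with earlier results of these data known. Intervals cover counting or library error only.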

Additional observations from a re-analysis of the deposited data

How the results depend on the processing

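The number of Bmp targets called lower, 1 in the limma fit on 6 libraries, was 2 (Id2 and Id3) under DESeq2, a pseudocount of 5, no filter on low values, the replicate block or a term for the number in the column names (1 for replicate 1 and another for replicates 2 and 3), and 3 (also Msx2, adjusted p = 0.0465) with a GC correction and the replicate block. It was 0 with a pseudocount of 0.1 (adjusted p of Id2 0.0586), a mean of at least 50 normalized counts (0.0516), FPKM with a pseudocount of 0.1 (0.0850) or replicates 2 and 3 only (0.144), and 0 to 2 when a library was left out. The number called higher was 0 throughout. The same numbers over all genes, 479 higher and 98 lower, were 772 and 280 under DESeq2, 848 and 269 with the replicate block, 846 and 286 with the term for the column names and 807 and 306 with the GC correction and block. They ranged from 222 to 559 higher and from 32 to 98 lower when a library was left out, with 310 and 35 without control library 2, 268 and 40, 222 and 32, and 245 and 41 without ILK-K5 libraries 1, 2 and 3. Of the other pathway genes, 6 were called lower, 9 under DESeq2, 8 with the replicate block, the term for the column names or the GC correction and block, 3 with replicates 2 and 3 only and 3 to 5 when a library was left out, with 3 each without control library 2 or ILK-K5 libraries 1 or 2. The number called higher was 1 (Skil) with the GC correction and block and 0 to 1 when a library was left out, Runx2 being called without control library 1. The only reversed direction was that of Msx1 without control library 2 (0.0044), whose log2 fold change ranged from -1.40 to 0.0044 when a library was left out. The correlations of deviations from the group means were 0.53, 0.020 and 0.31 for replicate numbers 1 to 3. Control library 1 correlated best with ILK-K5 library 1, beside -0.45 and -0.32 with ILK-K5 libraries 2 and 3. Control library 2 correlated with ILK-K5 libraries 1 to 3 at -0.060, 0.020 and 0.074, and control library 3 at -0.55, 0.50 and 0.31. Deviations from a mean of 3 libraries sum to 0 within a genotype, so these correlations cannot decide whether the numbers mark pairs. The paper states that controls were littermates of the ILK-deficient mice, but the sources used here do not say which libraries shared a litter. Under the block, Id2 and Id3 had adjusted p-values of 0.0116 and 0.0106. With no filter the median log2 fold change of all genes was -0.10. Msx1 and Smad6, read at most 37 times in any library, limit what this depth can show. The causes of these differences were not tested.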
